A study of Mus musculus with 6 samples.

Results

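The circadian clock genes Clock, Arntl, Npas2, Per1, Per2, Per3, Cry1, Cry2, Nr1d1 and Dbp were examined in adult mouse hippocampus. They were chosen by name, as the textbook core of the clock, and a gene was read from the probe set that the array annotation pairs with that symbol alone. Of these 10 genes, 9 were measured, among 19938 genes on the array, and each of the 9 had 1 probe set. Npas2 matched no probe set in the annotation used and was not analysed here. The mice were C57Bl/6J males killed at the age of 70 days, after subcutaneous injections as pups on postnatal day 4 and again on day 7, 2 on each day (9 and 11 am). One group received ethanol, 2.5 g/kg at each injection, dissolved in saline (0.15 M), and the other saline. Littermates matched for sex and weight had been split between these groups. Hippocampal RNA of 3 mice, no 2 of them littermates, was pooled for each Affymetrix Mouse Gene ST array, with 3 arrays per group, so that 6 arrays stood for 18 mice. Values are log2 expression after RMA, a method that corrects the background, equalises the distributions of the arrays and combines the probes of a set. The hour at which mice were killed is not given in the sources used here.

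The mammalian clock is a loop of transcription. CLOCK, or its relative NPAS2, binds DNA together with BMAL1, the product of Arntl, at E-boxes and turns on Per, Cry, Nr1d1 and Dbp, and PER and CRY proteins return to the nucleus to silence that pair. REV-ERBα, the product of Nr1d1, represses Arntl, so that Arntl RNA runs through the day nearly opposite to Per, Nr1d1 and Dbp RNA. The suprachiasmatic nucleus of the hypothalamus sets the time for the body, and the hippocampus carries a clock of its own, which has been tied to memory. Per1 is also switched on by neuronal activity and by corticosteroids, through sites apart from the E-boxes.

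After ethanol none of the measured clock genes passed the test. Per1 and Dbp had the largest differences, at 0.904-fold and 0.929-fold of saline. For every other measured member the difference was between -0.04 and 0.04 on the log2 scale. By limma, 0 of 9 members had an unadjusted p under 0.05, where 5.22% of all genes did, and 0 did so in the methods' t-test. After Benjamini-Hochberg adjustment over all probe sets with a symbol, limma called, at the 0.05 threshold, 0% of all genes and 0 members, with a lowest adjusted p of 0.931. Per1 was the single member whose pools did not overlap between the groups, 1 of 9, where 10.4% of all genes did not overlap. Ethanol was below saline in 6 of 9 members, and the median difference was -0.03, beside 0.00014 over all genes, of which 49.9% were below 0. In tissue of many cell types such as this, fewer cells of a type and less RNA per cell cannot be told apart.

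**Figure D1:**
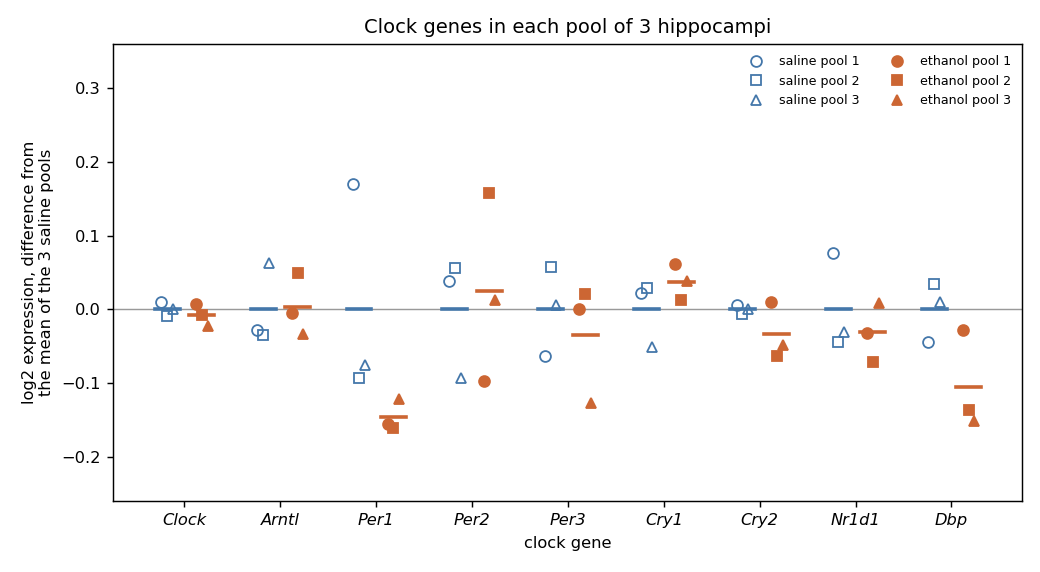
Log2 expression of 9 clock genes in each pool, each minus the saline group's mean. Open symbols are saline pools, filled symbols ethanol pools, and bars are group means. Per1 is the one gene whose ethanol pools all sit below its saline pools, with saline pool 1 far above the rest.

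Stretches upstream of the start sites show which clock elements stand near these genes. Promoter windows of the 250 bases before a RefSeq start site (assembly GRCm38.p6) were found for 9 of 10 members and for Ciart, a repressor described further on. They were searched on both strands for the E-box CACGTG, bound by CLOCK and BMAL1, the D-box TTATGNAAC, the site TTATGTAA bound by DBP and its relatives, the core AGGTCA of the element shared by REV-ERB and ROR receptors, and the cyclic AMP response element TGACGTCA. Capitals mark the matches, and each stretch runs 5′ to 3′ on the strand of its gene. The windows of Per1 (the first of its 2 start sites), Per3 and Cry1 are shown because they hold such elements. That of Ciart, the only gene outside the members whose own window was looked at, is shown for its E-boxes. Those of Dbp and Arntl are shown as the ends of the phase comparison.
Per1, chr11:69098699-69098948, plus strand: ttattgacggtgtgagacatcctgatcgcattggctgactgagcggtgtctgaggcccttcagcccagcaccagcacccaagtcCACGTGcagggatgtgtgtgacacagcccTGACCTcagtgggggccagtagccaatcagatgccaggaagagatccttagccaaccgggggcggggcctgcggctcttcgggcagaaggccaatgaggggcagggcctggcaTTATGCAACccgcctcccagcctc
Per3, chr4:151044666-151044915, minus strand: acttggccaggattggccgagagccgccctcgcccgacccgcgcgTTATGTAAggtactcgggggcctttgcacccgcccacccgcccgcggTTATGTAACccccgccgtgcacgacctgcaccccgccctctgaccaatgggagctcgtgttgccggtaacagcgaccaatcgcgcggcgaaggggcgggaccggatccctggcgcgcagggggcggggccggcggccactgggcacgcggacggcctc
Cry1, chr10:85185055-85185304, minus strand: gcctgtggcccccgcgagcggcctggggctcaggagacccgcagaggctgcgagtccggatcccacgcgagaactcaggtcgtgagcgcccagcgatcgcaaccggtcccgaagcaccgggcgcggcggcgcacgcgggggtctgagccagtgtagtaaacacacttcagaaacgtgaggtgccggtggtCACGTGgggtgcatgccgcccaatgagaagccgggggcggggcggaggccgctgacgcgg
Ciart, chr3:95882229-95882478, minus strand: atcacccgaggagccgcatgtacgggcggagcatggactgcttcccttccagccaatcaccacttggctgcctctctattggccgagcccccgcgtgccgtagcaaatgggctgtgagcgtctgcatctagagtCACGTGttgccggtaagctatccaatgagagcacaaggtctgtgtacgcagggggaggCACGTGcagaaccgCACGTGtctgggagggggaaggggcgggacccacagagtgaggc
Dbp, chr7:45704997-45705246, plus strand: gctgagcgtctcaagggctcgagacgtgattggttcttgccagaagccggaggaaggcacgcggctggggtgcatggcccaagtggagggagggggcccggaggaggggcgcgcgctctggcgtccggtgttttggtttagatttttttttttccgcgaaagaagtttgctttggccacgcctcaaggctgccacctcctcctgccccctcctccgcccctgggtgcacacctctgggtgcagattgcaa
Arntl, chr7:113207215-113207464, plus strand: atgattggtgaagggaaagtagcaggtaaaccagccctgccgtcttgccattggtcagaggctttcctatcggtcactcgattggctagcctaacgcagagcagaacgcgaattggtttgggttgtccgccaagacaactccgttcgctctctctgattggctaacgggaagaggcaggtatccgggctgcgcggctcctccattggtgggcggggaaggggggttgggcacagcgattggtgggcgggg
In the Per1 window, counted back from the start site, an E-box lies at -166, the receptor core lies at -137 on the opposite strand, and a D-box lies at -24. The window of the other Per1 start site holds none of these elements. Of the 3 windows of Clock, not shown, the third holds the receptor core, at -119 on the opposite strand, and the others hold none. In the Per3 window TTATGTAA occurs at -205 and again at -158, where it overlaps a D-box. Cry1 holds 1 E-box, at -60. Ciart holds 3 E-boxes, at -116, -58 and -44. Since no other gene of the further lists was looked at in this way, Ciart cannot be ranked among like genes. Among 32851 such windows of the genome, 6.02% hold the E-box and 0.0609% hold it 3 times or more. The D-box is in 0.527% of windows, TTATGTAA in 0.819%, the receptor core in 14.0% and the cyclic AMP response element in 1.55%. The windows of Arntl, Dbp, Cry2, Nr1d1 and Npas2 hold none of these letters. A match describes the letters of a window and was not tied to binding here.

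In the positive limb of the loop neither gene differed between the groups beyond its error. Clock, which encodes the DNA-binding partner of BMAL1, stood at 10.43, 10.41 and 10.42 in the saline pools and at 10.43, 10.41 and 10.40 in the ethanol pools. The pools overlapped throughout, and all 6 lay within 1.02-fold. The difference between groups was -0.01 ± 0.04 (SE), a fold of 0.995 with a 95% confidence interval of 0.939 to 1.05. The SD of Clock between pools of a group was 0.0126, lower than that of all but 0.642% of genes. Arntl, which encodes BMAL1, stood at 9.09, 9.09 and 9.19 in saline and at 9.12, 9.17 and 9.09 in ethanol. Saline pool 3 and ethanol pool 2 were the high ones, 1 in each group. The difference between groups was 0.0033 on the log2 scale, with an interval of 0.933 to 1.08-fold.

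Per1, the period gene with the quickest induction by stimuli, stood at 8.97, 8.71 and 8.73 in the saline pools and at 8.65, 8.64 and 8.68 in the ethanol pools. Saline pool 1 was far above the rest, and the ethanol pools lay close together just under the lower saline pools. The difference was -0.15 ± 0.07, a fold of 0.904 (interval 0.810 to 1.01), with an adjusted p of 0.931 in limma. Without saline pool 1 it was -0.06. The SD was 0.148 in saline and 0.0208 in ethanol, each over 3 pools. Per1 passed the unadjusted threshold in limma when each array was centred on its median (-0.16), without saline pool 2 (-0.19) and without saline pool 3 (-0.18).

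Per2 and Per3, the other period genes, had differences of opposite sign, both within their errors. Per2 stood at 7.70, 7.72 and 7.57 in saline and at 7.56, 7.82 and 7.67 in ethanol. Its highest and lowest pools were both ethanol pools, and the fold was 1.02 (interval 0.910 to 1.14). Per3 stood at 7.12, 7.24 and 7.19 in saline and at 7.18, 7.20 and 7.06 in ethanol. Ethanol pool 3 was the lowest, below saline pool 1, and the fold was 0.976 (interval 0.897 to 1.06).

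The cryptochromes, which give the complex with PER its repressing force, had differences within their errors. Cry1 stood at 6.34, 6.35 and 6.27 in saline and at 6.38, 6.33 and 6.36 in ethanol, a fold of 1.03 (interval 0.962 to 1.09). Cry2 stood at 9.53, 9.51 and 9.52 in saline and at 9.53, 9.46 and 9.47 in ethanol, a fold of 0.977 (interval 0.918 to 1.04). The groups overlapped in both genes. For Cry2 2 of the 3 ethanol pools lay below every saline pool, and the third was the highest of all.

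Nr1d1 and Dbp are direct E-box targets and among the genes of the loop with the widest daily swing. Nr1d1 stood at 11.07, 10.95 and 10.97 in saline and at 10.97, 10.93 and 11.01 in ethanol. Saline pool 1 was again the highest, as for Per1, and the fold between groups was 0.978 (interval 0.908 to 1.05). Dbp, a transcription factor that carries the rhythm to genes with D-boxes, stood at 9.09, 9.17 and 9.15 in saline and at 9.11, 9.00 and 8.99 in ethanol. Ethanol pools 2 and 3 lay below all saline pools, while ethanol pool 1 lay just above saline pool 1. The difference was -0.11 ± 0.05, a fold of 0.929 (interval -0.21 to 0.0026 on the log2 scale), with an adjusted p of 0.931 in limma. Dbp passed the unadjusted threshold after median centring (-0.12), with array weights (-0.11), without saline pool 1 (-0.13) and without ethanol pool 1 (-0.14). Over these and the other alternatives, the Dbp difference stayed below 0 in each, between -0.14 and -0.08 when arrays were left out.

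The members differed in how much they varied from pool to pool. Over the 6 pools the range of a member went from 1.02-fold in Clock to 1.26-fold in Per1, beside a median of 1.12-fold over all genes. By the SD between pools of a group, Per2 and Per1 were more variable than 88.3% and 87.5% of genes. Per3 followed at 62.9%, Dbp at 43.4%, Nr1d1 at 42.1% and Arntl at 34.1%. Cry1 and Cry2 were at 16.4% and 8.18%. The median of the 9 was 42.1%.

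**Figure D2:**
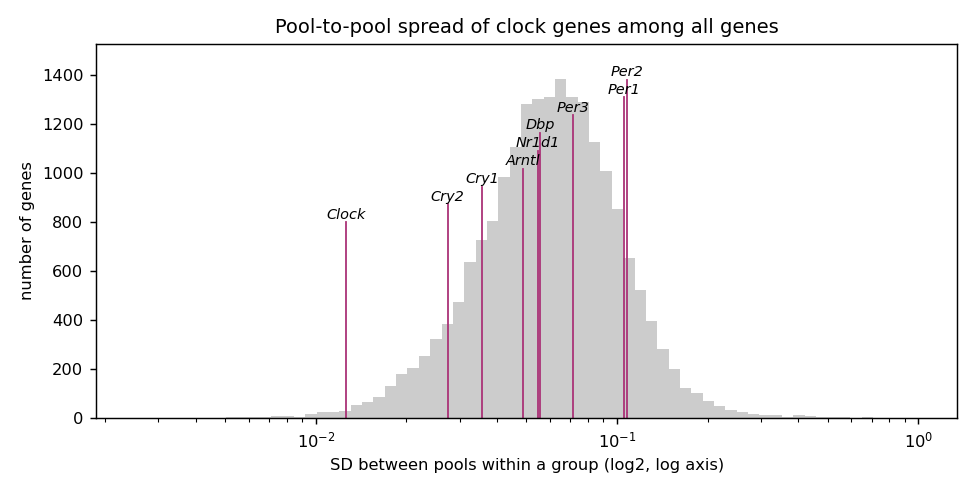
Histogram of the SD between pools of a group for 19938 genes, on a log axis in log2 units, with a line for each clock gene (line heights only separate the names). Clock lies at the narrow end, and Per1 and Per2 lie on the wide side.

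Along a daily rhythm Arntl is high when Per and Dbp are low, and that order was looked for over the 6 pools. Each pool averages 3 mice whose hour of death is not given. The order could not show if the pools did not differ in phase. Arntl and Per1 had a Pearson r of -0.32 (exact permutation p = 0.669) and a Spearman rho of -0.14 (exact permutation p = 0.803). For Arntl and Per2 the values were -0.05 (exact permutation p = 0.935) and -0.26 (exact permutation p = 0.658). For Arntl and Dbp they were -0.01 (exact permutation p = 0.975) and -0.03 (exact permutation p = 1). Arntl and Per3 had the opposite sign, with an r of 0.39 (exact permutation p = 0.467) and a rho of 0.09 (exact permutation p = 0.919). The adjusted p was 0.975 for r in all 4 pairs, over the 36 pairs among the 9 members. Without saline pool 3 and ethanol pool 2, the pools farthest from the median of Arntl, r was -0.29 with Per1, -0.95 with Per2, 0.20 with Per3 and 0.13 with Dbp, so the values with Per2 and Dbp rest on those pools. Across 6 pools an exact permutation p can be as low as 0.00139 for r, and its floor is higher for rho.

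**Figure D3:**
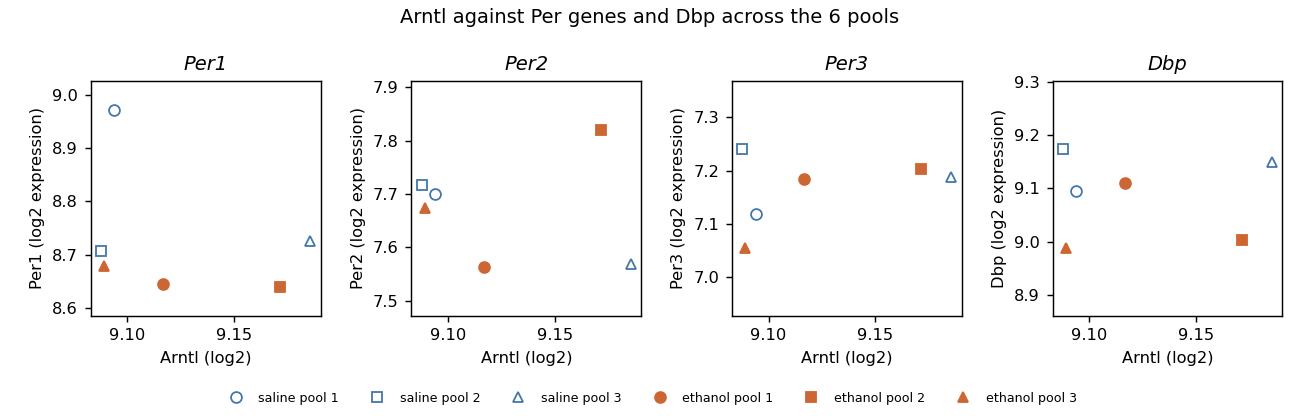
Log2 expression of Per1, Per2, Per3 and Dbp against that of Arntl, with 1 point per pool (open symbols saline, filled symbols ethanol). No panel shows a line along which high Arntl goes with a low partner, and the 2 pools high in Arntl belong to different groups.

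No pair among the 36 had an exact permutation p under 0.05, by Pearson or by Spearman, and r ran from -0.73 to 0.87. The highest was between Per1 and Nr1d1, at 0.87 (exact permutation p = 0.0569, adjusted p = 0.85), with a rho of 0.71 (exact permutation p = 0.136). It was -0.26 without saline pool 1 and ethanol pool 2, so it rests on those pools. The lowest was between Arntl and Cry1, at -0.73 (exact permutation p = 0.0542), with a rho of -0.60 (exact permutation p = 0.242). It was 0.86 without saline pool 3 and ethanol pool 2.

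The distance along this axis was also given for each pool, as the mean of Per1, Per2, Per3 and Dbp minus Arntl, each as a log2 difference from its saline mean. It was 0.05, 0.05 and -0.10 in the saline pools and -0.06, -0.08 and -0.06 in the ethanol pools. The ethanol pools lay inside the range of the saline pools, with saline pool 3 the lowest of the 6. The mean was 0 in saline (SD 0.088, n = 3) and -0.07 in ethanol (SD 0.0085, n = 3). The genes whose levels followed the mean of Per1, Per2, Per3 and Dbp most closely, among 9965 genes above the median level of 6.77, were Cpsf6 (r of 0.982 over the 6 pools), Agfg2 (0.974), Cttnbp2 (0.973), Snap29 (0.972) and Ptms (0.966). In all, 52 of the 9965 genes had an r above 0.9, and how many would by chance over 6 pools was not tested. None of these 5 is a clock gene by textbook knowledge.

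Beyond the core loop, the second loop and the related PAR bZIP factors had 7 of 8 genes measured. The median difference of these 7 was 0.01. By limma at an unadjusted p under 0.05, 1 was higher and 0 lower, where 5.22% of all genes passed. The one was Rora, which encodes a receptor that competes with REV-ERBα at Arntl and that the thalamus also expresses strongly. It stood at 8.76, 8.63 and 8.69 in saline and at 9.29, 8.89 and 8.79 in ethanol. All ethanol pools lay above all saline pools, and ethanol pool 1 was far above the rest. The difference was 0.30 ± 0.11, a fold of 1.23 (interval 1.03 to 1.47), past the unadjusted threshold in limma with an adjusted p of 0.931, and without ethanol pool 1 it was 0.15. Rora lost the call in 4 of 15 alternatives, which were the methods' t-test, all probe sets, and the fits without saline pool 2 (0.27) or saline pool 3 (0.30). In the same order, a list of thalamus markers had a mean difference from saline of 0.87, 0.33 and 0.15 in the ethanol pools and between -0.02 and 0.03 in the saline pools. Their part in the Rora result was not tested. Nr1d2, the close relative of Nr1d1, and Hlf, a relative of Dbp, differed by -0.0011 ± 0.04 and 0.02 ± 0.04, neither past the test. Nfil3, which opposes Dbp at D-boxes, differed by 0.11 ± 0.06 and did not pass.

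Of 16 further repressors and modifiers, 14 were measured, with a median difference of 0.0041. At the unadjusted limma threshold, which 5.22% of all genes passed, 0 were higher and 1 was lower. The one was Ciart, also called Chrono, which represses the CLOCK and BMAL1 pair and whose window above holds 3 E-boxes. Its brighter probe set stood at 8.87, 8.84 and 8.69 in saline and at 8.70, 8.71 and 8.56 in ethanol. The groups overlapped, since saline pool 3 lay below ethanol pools 1 and 2. The difference was -0.14 ± 0.06 (interval 0.821 to 0.999-fold, adjusted p of 0.931 in limma), and 9 of 15 alternatives lost the call. These were the methods' t-test, quantile normalization, all probe sets, the mean of its probe sets (-0.03), array weights (-0.09), and the fits without saline pool 1 (-0.11), saline pool 2 (-0.12), ethanol pool 1 (-0.17) or ethanol pool 3 (-0.09). Its dimmer probe set, at 7.08, 6.87 and 7.34 in saline and 7.11, 7.22 and 7.24 in ethanol, differed by 0.09 ± 0.10 and did not pass, so the probe sets disagreed in direction. Among kinases that act on clock proteins, Csnk1d and Csnk1e did not pass the test, nor did Gsk3b at -0.04 ± 0.05 or Csnk2a1 at 0.01 ± 0.04.

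Genes that are rhythmic in many tissues had 8 of 9 measured, with a median difference of -0.04. Of these 1 was higher and 0 lower at the unadjusted limma threshold, beside 5.22% of all genes past it. Tspan4, a membrane tetraspanin, stood at 7.52, 7.58 and 7.47 in saline and at 7.67, 7.66 and 7.65 in ethanol. All ethanol pools lay above all saline pools. The difference was 0.13 ± 0.04 (interval 1.03 to 1.17-fold), past the unadjusted threshold in limma with an adjusted p of 0.931. Usp2, a deubiquitinase whose RNA follows BMAL1, differed by -0.09 ± 0.06, and Nampt, an enzyme of NAD synthesis, by -0.07 ± 0.05, neither past the test.

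**Figure D4:**
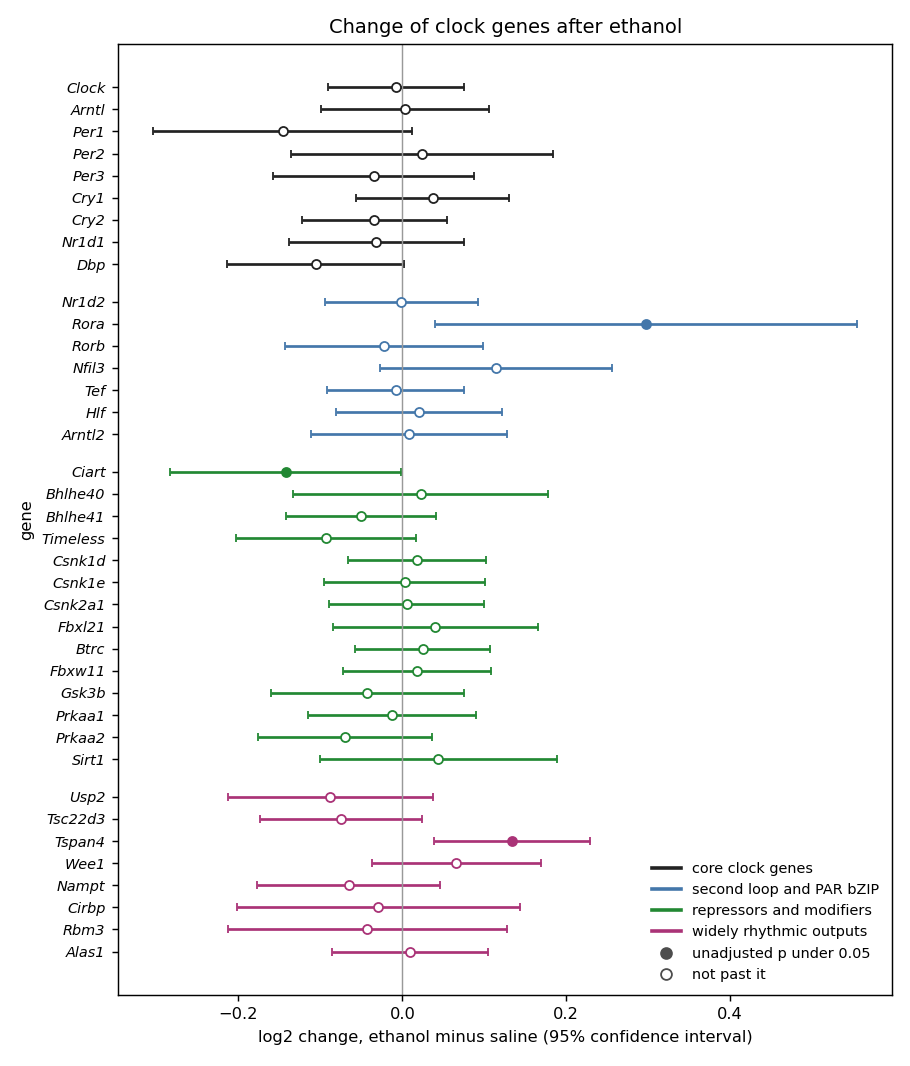
Log2 difference between ethanol and saline with its 95% confidence interval from limma, for 9 core clock genes and 3 lists of further clock genes. Filled points have an unadjusted p under 0.05 (Rora, Ciart and Tspan4). The intervals of all core genes cross 0.

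Per1 also answers to corticosteroids and to neuronal activity, so lists of such genes were read beside it. Of 9 measured corticosteroid-responsive genes, 0 passed in limma and 0 in the methods' t-test, with a median difference of 0.03. The metallothioneins Mt2 and Mt1 differed by 0.09 ± 0.05 and 0.03 ± 0.07. Of 11 activity-responsive genes, 1 was lower in limma, beside 5.22% of all genes past the unadjusted threshold. The one was Arc, which encodes a postsynaptic protein made after strong input. It stood at 9.21, 9.39 and 9.07 in saline and at 8.88, 9.20 and 8.66 in ethanol. Those pools overlapped, with ethanol pool 3 the lowest, and the difference was -0.31 ± 0.13, past the unadjusted threshold with an adjusted p of 0.931 in limma. Arc lost that call in 8 of 15 alternatives, among them the fits without saline pool 1 (-0.32), saline pool 2 (-0.23), ethanol pool 1 (-0.29) or ethanol pool 3 (-0.19). In 10 of 11 genes ethanol was below saline, beside 49.9% of all genes, and the median difference was -0.09. The list mean by pool was -0.0033, 0.079 and -0.075 in saline and -0.094, 0.082 and -0.30 in ethanol. Ethanol pool 2 thus lay above every saline pool. Nr4a1 and Dusp1, early genes of the same kind, differed by -0.16 ± 0.14 and -0.09 ± 0.07. Ethanol pool 3 held the lowest value in 8 of the 11. Per1 was nearly level over the ethanol pools, at 8.65, 8.64 and 8.68. The part of this list in the Per1 result was not tested.

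The dissection was checked against markers. Of the suprachiasmatic nucleus markers, the log2 values over the 6 pools ran from 4.72 to 4.78 for Nms, 4.17 to 4.26 for Six6, 4.63 to 4.73 for Lhx1, 4.48 to 4.67 for Prok2, 5.75 to 5.92 for Avp, 7.76 to 8.07 for Vip and 10.25 to 10.54 for Grp. Of these 7 genes 0 passed in limma, against 1 in the methods' t-test. Grp and Vip, the brightest of these, differed by 0.03 ± 0.08 and 0.00057 ± 0.08. Vip also marks hippocampal interneurons, and which tissue the Grp signal came from was not tested. Of 10 measured markers of hippocampal neurons, 0 passed in limma or in the methods' t-test, with a median difference of 0.02, and Calb1 and Neurod6 differed by 0.05 ± 0.04 and 0.04 ± 0.05. Thalamus markers were higher in 9 of 11 genes in limma but in 1 in the methods' t-test, with a median difference of 0.46. Some of these markers were among the genes that the study had called higher on these same arrays. That count was therefore partly known beforehand. Over all genes 5.22% passed in limma, higher or lower, and the share in the methods' t-test was not counted. Choroid plexus markers were higher in 3 of 15 in limma and in 0 in the methods' t-test, with a median of 0.50. Each of these 3 (Kl, Steap1 and Kcne2) lost the call in 7 alternatives. Among them were the fits without saline pool 1 or 2 and without ethanol pool 1 or 3. For Kl 15 alternatives were run, and fewer for Steap1 and Kcne2, which the filter on dim probe sets removed. Without ethanol pool 1, Kl, Steap1 and Kcne2 were 0.30, 0.30 and 0.25, against 0.52, 0.50 and 0.45 with all pools. The list was high in ethanol pools 1 and 3 (list means 1.09 and 0.66) but not in pool 2 (-0.28). Oligodendrocyte markers were lower in 4 of 9 in limma and in 2 in the methods' t-test, with a list mean lowest in ethanol pool 2, at -0.19. Of these 4, Cldn11 lost the call in 7 of 15 alternatives, Opalin in 5, Tspan2 in 2 and Mal in 0. The arrays whose omission ended a call were saline pools 2 and 3 and ethanol pools 2 and 3 for Opalin, saline pools 2 and 3 and ethanol pools 1 and 2 for Cldn11, and saline pool 3 and ethanol pool 2 for Tspan2. Without ethanol pool 2, Opalin was -0.16 against -0.21 and Cldn11 -0.09 against -0.12. The list mean of the clock members stayed between -0.05 and 0.02 in all pools, and the part of these other markers in the clock gene values was not tested.

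**Figure D5:**
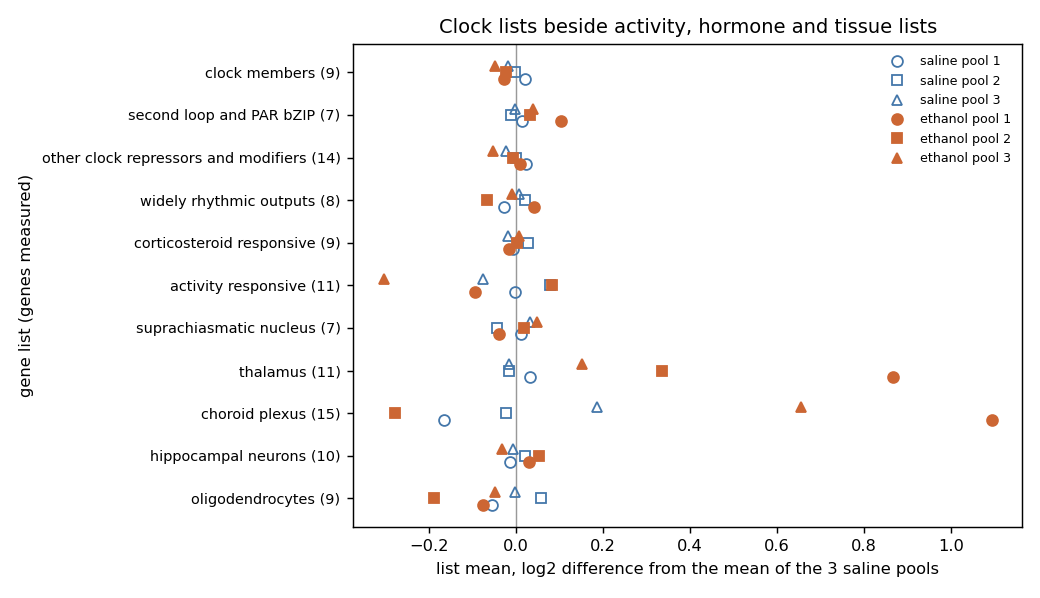
Mean log2 difference from the saline mean for each gene list (number of genes measured in brackets), with 1 symbol per pool, open for saline and filled for ethanol. The clock members lie within 0.05 of 0 in all pools, while thalamus and choroid plexus markers spread far to the right in ethanol pool 1.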

How the data were processed

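Hippocampal RNA was measured on 6 arrays, 3 pools per group, and groups and pool numbers were taken from the sample labels. RMA was run by the authors, who deposited its log2 values, 1 per probe set and array. Its version, like the annotation's genome build, is not given in the sources used here. The values, from 3.51 to 13.9, were used as deposited, and their precision is limited by the number of arrays. Of 35556 probe sets, 21789 had 1 gene symbol, 1621 several and 12146 none, and genes were named through the platform annotation from those with 1. For a gene with several probe sets the brightest was used. Probe sets measure on different scales, so levels were not compared between genes as amounts of RNA. Levels did serve to pick the brightest genes of a list. The search for genes like the output mean left out those below the median level.

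Ethanol was compared with saline with limma (version 3.58.1 under R 4.3.3, lmFit and then eBayes) on all 23410 probe sets with a symbol, two-sided and without covariates, with Benjamini-Hochberg adjustment. Standard errors and intervals are those of limma. The methods' t-test is an ordinary one with equal variances, the form of an ANOVA of 2 groups with no other term. Whether the study's ANOVA held other terms is not given in the sources used here. Not every gene that the study called passed this t-test. Correlations were tested with an exact permutation test over all pairings of the 6 pools, two-sided. Since Npas2 was not matched, 36 pairs were tested in place of 45. The limma step was also run on simulated data with independent noise for each gene. Variation that genes share between pools was not simulated, so that run does not cover it. Promoter windows came from a RefSeq table of GRCm38.p6, and figures were drawn with matplotlib 3.10.9.

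The clock members, the gene lists and the tests were chosen with earlier results of these data known. The text names all members and the 5 genes most like the output mean. In each other list it names the genes at a limma p under 0.05 (at most 4) or else the brightest 2. The exception is the thalamus markers, which are given only as a list. Usp2, Nfil3, Csnk1d, Csnk1e, Nms, Six6, Lhx1, Prok2, Avp, Cirbp and the other genes named outside this rule were chosen after their values were seen. The listed symbols that matched no probe set as its only symbol, 10 in all, were left out. Alternatives were the methods' t-test, a replicate block, median centring, quantile normalization, a filter on dim probe sets, all probe sets, averaging of probe sets within genes, an intensity trend, array weights and each array left out in turn, and for correlations group means removed and the 2 farthest pools left out.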

Additional observations from a re-analysis of the deposited data

How the results depend on the processing

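The number of probe sets past the adjusted threshold was 0 under every alternative run, including the replicate block, in which 0 members passed as well. Pools with the same number did not deviate together (correlations of -0.05, -0.02 and 0.06), so the pairing by number was not used. The count of members at an unadjusted p under 0.05, 0 in the report, was 2 after median centring and 1 with array weights, and 0 to 1 when each array was left out. The median difference of the members, -0.03, was -0.047 after median centring and -0.032 to -0.00052 with an array left out. The output mean minus Arntl was -0.12 to -0.04.

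Differences close to 0 changed sign. Arntl was -0.012 after median centring and -0.019 with array weights, Csnk2a1 -0.010 and Vip -0.015 after median centring, Vip -0.043 and Grp -0.018 with array weights, and Nr1d2 0.0051 after quantile normalization. Arntl against Per2 had an r of 0.14 after median centring and 0.27 after quantile normalization. Arntl against Dbp had 0.32 after median centring, 0.13 without the 2 farthest pools and 0.026 with group means removed. With an array left out, r ran from -0.44 to 0.032 for Per1, -0.78 to 0.51 for Per2, 0.13 to 0.81 for Per3 and -0.45 to 0.38 for Dbp. Differences ran from -0.020 to 0.035 for Arntl, -0.042 to 0.086 for Per2, -0.067 to 0.011 for Per3, -0.054 to 0.0063 for Nr1d1, -0.0038 to 0.058 for Hlf, -0.023 to 0.018 for Nr1d2, -0.015 to 0.033 for Csnk2a1, -0.11 to 0.026 for Rbm3, -0.029 to 0.11 for Mt1, -0.044 to 0.10 for Grp and -0.079 to 0.076 for Vip. Tspan4 was 0.11 and missed the unadjusted threshold without saline pool 3. The cause of these changes was not tested. With 3 pools a group, a difference near the median standard error of 0.05 could not be told from 0.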

Other observations

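Cirbp and Rbm3, RNA-binding proteins whose RNA rises in the cold and follows the daily swing of body temperature, both had their lowest value in ethanol pool 2. Cirbp stood at 9.16, 9.18 and 9.26 in the saline pools and at 9.29, 8.99 and 9.23 in the ethanol pools. Rbm3 stood at 11.26, 11.46 and 11.43 in saline and at 11.44, 11.20 and 11.37 in ethanol. The groups overlapped in both, and neither passed the test, with differences of -0.03 ± 0.08 and -0.04 ± 0.07.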
